A study of Mus musculus with 2 samples.

Results

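The 10 genes described here encode the nuclear receptors through which bezafibrate can act, their dimer partners and the coactivators they recruit: the PPARs (Ppara, Ppard, Pparg), the retinoid X receptors (Rxra, Rxrb, Rxrg), the PGC-1 family (Ppargc1a, Ppargc1b, Pprc1) and the estrogen-related receptor alpha (Esrra). They were chosen by name, as the probe sets whose platform gene symbol is exactly 1 of these symbols, and all 10 were found among 22180 genes with a value. Expression was measured on 2 Affymetrix arrays, 1 for mouse CD8+ T cells cultured with dimethyl sulfoxide (DMSO, the solvent) and 1 for cells cultured with bezafibrate at 30 µM in that solvent. Naive cells of both cultures had been stimulated with beads carrying antibodies to CD3 and CD28 in recombinant human IL-2 at 100 U/mL, and were expanded to day 13. The labels give no mouse strain, age or number of animals or cultures, so each group is 1 array with no replicate error, no p-value is given, and every difference compares these arrays, not the conditions.

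PPARs are ligand-activated transcription factors that sense fatty acids, and fibrates such as bezafibrate are synthetic agonists of them. A PPAR binds DNA only as a heterodimer with a retinoid X receptor; agonist binding exchanges corepressors for coactivators, among which the PGC-1 proteins are known for driving mitochondrial biogenesis and fatty acid oxidation, the latter often together with Esrra. Ppara is best known from liver and heart, Pparg from adipocytes and macrophages, and Ppard from most tissues.

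Background was read from 1105 olfactory receptor (Olfr) genes, the odorant receptors of nasal sensory neurons, taken as silent in T cells. Their median log2 signal was 2.56 on the DMSO array and 2.58 on the bezafibrate array, and their 95th percentile, used as the limit of background, was 4.72 and 4.74. Of all 22180 genes, 50.7% lay above the limit on both arrays. Probe sets differ in their own background, so a level inside it does not show that a transcript was absent. The markers of CD8 T cells were above the limit on both arrays for 11 of 11 measured genes, with Cd8a at 10.82 and 10.68. Some genes of other tissues also passed it, such as the skeletal muscle actin gene Acta1 (5.96 and 6.06) and the liver apolipoprotein gene Apoa1 (5.14 and 5.19), so a level slightly above the limit is weak evidence of a transcript.

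Of the 10 genes, 6 read above Olfr background on both arrays (Ppard, Rxra, Rxrb, Esrra, Pprc1 and Ppargc1b) and 4 on neither (Ppara, Pparg, Rxrg and Ppargc1a). Of all 22180 genes, 50.7% read above it on both arrays, so the count itself does not set these genes apart. The family divided by isoform: 1 of 3 PPARs, 2 of 3 RXRs and 2 of 3 PGC-1 family members passed. By this criterion Ppard is the PPAR isoform whose transcript was there for the drug to act through, with Rxra and Rxrb as the partners it could pair with. Receptor protein, drug binding and receptor activity were not measured.

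**Figure D1:**
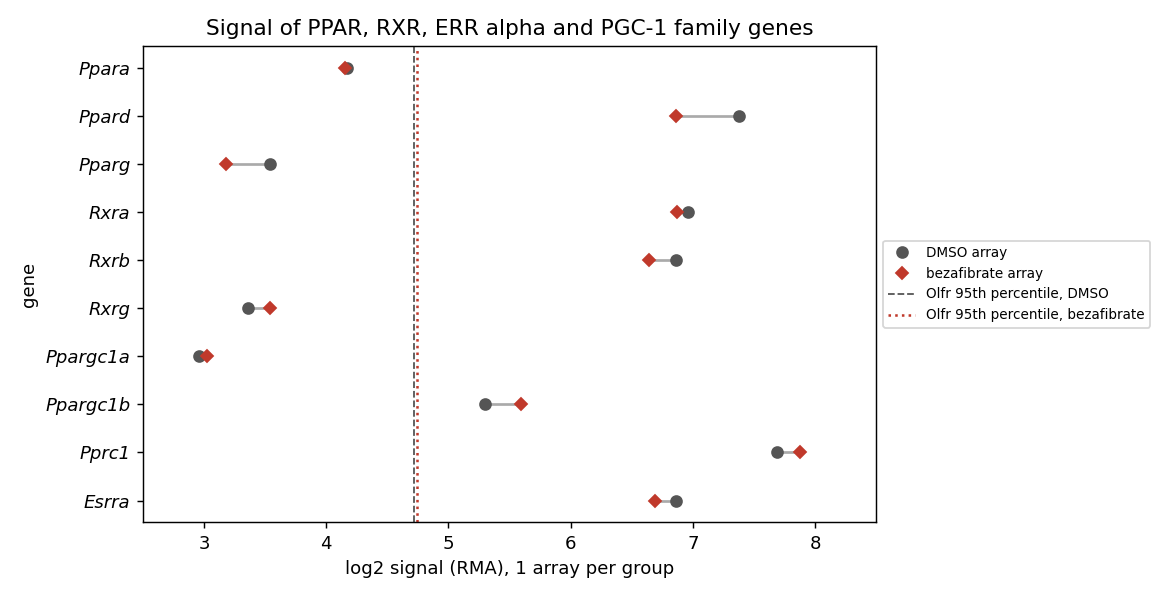
Log2 signal (x axis, RMA values) of the 10 genes (y axis) on the DMSO array (grey circles) and the bezafibrate array (red diamonds), 1 array each, with the 95th percentile of 1105 Olfr genes on each array as vertical lines at 4.72 and 4.74. Both points of Ppard, Rxra, Rxrb, Ppargc1b, Pprc1 and Esrra lie right of the lines, and both points of the other 4 genes lie left of them.

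Among the PPARs, Ppard (probe set 17335297), the broadly expressed isoform also called PPAR delta or beta, had a log2 level of 7.38 with DMSO and 6.86 with bezafibrate. None of the 1105 Olfr genes read as high on the DMSO array and 1 did on the bezafibrate array. Ppara (probe set 17313862), the classical fibrate receptor of liver, had levels of 4.17 and 4.15. Both lay inside the Olfr distribution, where 128 and 117 Olfr genes read at least as high. Pparg (probe set 17461942), the receptor that directs adipocyte differentiation, had levels of 3.54 and 3.18, with 247 and 332 Olfr genes at least as high. Neither array therefore separated Ppara or Pparg from silent genes.

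Marker genes of adipocytes, macrophages and hepatocytes, cells that use the other isoforms, were mostly inside background, and those of muscle less so. Of 5 measured adipocyte markers 0 were above the limit on both arrays, with Adipoq at 3.58 on each and Fabp4 at 2.08 and 1.81. Of 8 measured macrophage and monocyte markers 3 were above it on both arrays (Cd68, Marco and Csf1r), and the others, such as Adgre1 at 3.33 and 3.21, were not. Of 6 measured hepatocyte markers Apoa1 passed on both arrays and Alb, at 3.40 and 3.22, did not. Of 6 measured muscle markers 3 passed on both arrays, Acta1 and, close to the limit, Tnnt2 (4.74 and 4.76) and Mb (4.80 on each).

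Ppard was 1.44-fold lower on the bezafibrate array, a log2 ratio of −0.53. This was short of 1.5-fold, a size reached by 0 of the 10 genes and by 2.53% of all genes in either direction. Of 2528 genes within 0.5 log2 of its mean level, 13 (0.514%) had a log2 ratio as low or lower, and 95% had ratios between −0.37 and 0.41. A second probe set naming Ppard (17335308) went the other way, from 5.02 with DMSO to 5.33 with bezafibrate, a log2 ratio of 0.31. It also names 1810013A23Rik, a long non-coding RNA gene that lies within the span of Ppard in RefSeq's annotation of GRCm38.p6, and which of these transcripts it reads was not tested. Averaged over both probe sets the log2 ratio of Ppard was −0.11, so the lower level with bezafibrate rests on the probe set that names Ppard alone. The shared probe set also read above the limit on both arrays, but below the 99th percentile of Olfr genes (5.62 and 5.71).

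**Figure D2:**
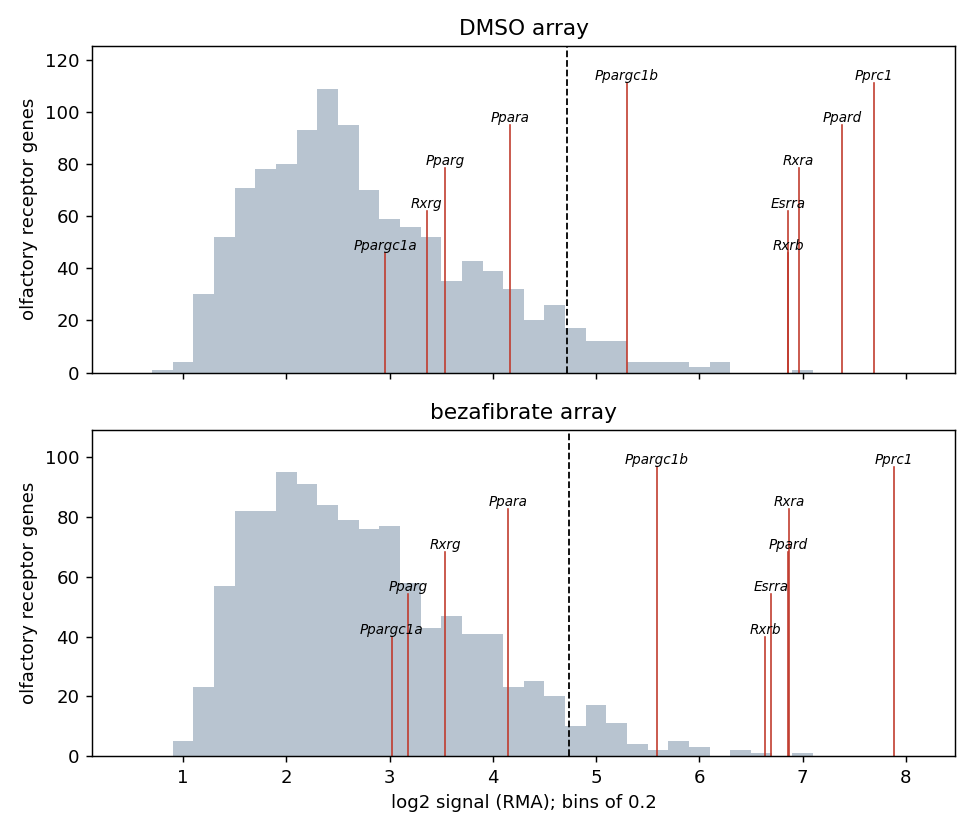
Histograms of log2 signal (x axis) over 1105 Olfr genes (y axis, number of genes in bins of 0.2) on the DMSO array (top) and the bezafibrate array (bottom), with the 95th percentile as a dashed line and the level of each of the 10 genes as a red line whose height carries no value. Ppara, Pparg, Rxrg and Ppargc1a stand within the histogram on both arrays, while Ppard stands beyond all Olfr genes on the DMSO array and below 1 of them on the bezafibrate array.

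The retinoid X receptors are the obligate partners of the PPARs. Rxra (probe set 17368550), the widely expressed isoform, had levels of 6.96 and 6.87, and Rxrb (probe set 17336322), the other widely expressed isoform, had 6.86 and 6.64. For each of them 1 Olfr gene read at least as high on each array. Their log2 ratios were −0.09 and −0.22, both within the range that held 95% of genes of like level (−0.38 to 0.42). Rxrg (probe set 17219110), known mainly from muscle and brain, had levels of 3.36 and 3.54, inside background on both arrays, with 286 and 250 Olfr genes at least as high. Thus 2 RXR isoforms were readable in both cultures, and their levels differed between the arrays by less than 1.5-fold.

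In the PGC-1 family, the member best known as the inducible regulator of mitochondrial biogenesis was not readable. Ppargc1a (probe set 17448001) had levels of 2.96 and 3.02, with 403 and 378 Olfr genes at least as high. Ppargc1b (probe set 17354739), its close relative, which also coactivates Esrra, had levels of 5.30 and 5.59, with 19 and 14 Olfr genes at least as high, and was higher with bezafibrate by a log2 ratio of 0.29 (1.22-fold). Its level was near the limit and below the 99th percentile of Olfr genes (5.62 and 5.71), in the same range as Acta1 and Apoa1. Pprc1 (probe set 17359878), the family member induced when cells enter growth, had levels of 7.69 and 7.88, above all 1105 Olfr genes on both arrays, and a log2 ratio of 0.18. Of genes of like level, 7.67% had a ratio as high as that of Ppargc1b and 20% one as high as that of Pprc1. Both readable coactivators were thus higher on the bezafibrate array by amounts within the range that held 95% of genes of like level (−0.44 to 0.42 for Ppargc1b and −0.37 to 0.39 for Pprc1).

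Esrra (probe set 17362111), an orphan receptor that acts with PGC-1 proteins on genes of oxidative metabolism, had levels of 6.86 with DMSO and 6.69 with bezafibrate. For Esrra 1 Olfr gene read at least as high on each array, and its log2 ratio was −0.17. Its relatives were at or within background: Esrrg had 4.88 and 5.03, just above the limit, and Esrrb 4.24 and 3.84, under it.

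Across the 6 readable genes, 4 were lower with bezafibrate (Ppard, Rxrb, Esrra and Rxra) and 2 higher (Ppargc1b and Pprc1), where 49.3% of all genes above the limit on both arrays were lower and 48.4% higher. With Ppard in the direction of its shared probe set the split would be 3 lower and 3 higher. Their median log2 ratio was −0.13, against 0.00 over the 12120 genes above the limit on at least 1 array, of which 95% had ratios between −0.43 and 0.42. The markers of CD8 T cells were also lower, in 9 of 11 genes, with a median of −0.14 and a summed signal on the linear scale of 11857 with DMSO and 10750 with bezafibrate; their part in the result was not tested. A log2 difference of at least 0.32, which 16.4% of all genes reached, was seen in 2 of the 10 genes, Ppard and Pparg, the latter inside background. Of all 10 genes, 9 had ratios within the range that held 95% of genes of like level, the exception being Ppard.

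**Figure D3:**
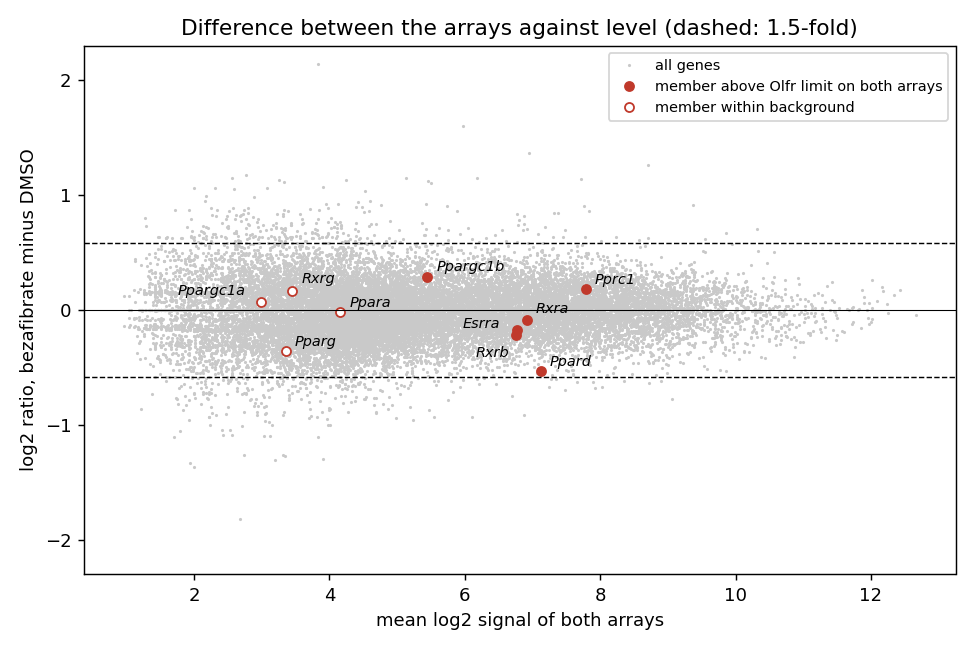
Log2 ratio of bezafibrate over DMSO (y axis) against the mean log2 signal of both arrays (x axis) for 22180 genes (grey) and the 10 genes (red, filled where above the Olfr limit on both arrays, open where within background), with dashed lines at 1.5-fold. Every one of the 10 genes lies between the dashed lines, and Ppard, at −0.53, lies nearest to one.

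RefSeq's promoter sequences of GRCm38.p6 were matched by symbol for 9 of the 10 genes, all but Ppargc1b, in 14 windows. The 250 bases before the transcript start are shown for a readable and an unreadable member of the PPARs and of the PGC-1 family. They were chosen because CG dinucleotides, dense at the promoters of many broadly expressed genes, sorted these genes by detection only in part. Capitals mark CG. Ppard (chr17:28232504-28232753, plus strand) has 22 and Ppara (chr15:85735526-85735775, plus strand) 27, whereas Pprc1 (chr19:46056289-46056538, plus strand) has 8 and Ppargc1a (chr5:51567726-51567975, minus strand) 5. The median over all 32851 windows was 6.
Ppard: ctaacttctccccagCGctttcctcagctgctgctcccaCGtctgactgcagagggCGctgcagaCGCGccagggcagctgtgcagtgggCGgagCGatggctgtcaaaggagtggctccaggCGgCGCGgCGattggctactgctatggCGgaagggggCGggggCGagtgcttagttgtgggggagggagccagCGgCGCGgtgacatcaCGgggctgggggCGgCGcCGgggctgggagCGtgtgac
Ppara: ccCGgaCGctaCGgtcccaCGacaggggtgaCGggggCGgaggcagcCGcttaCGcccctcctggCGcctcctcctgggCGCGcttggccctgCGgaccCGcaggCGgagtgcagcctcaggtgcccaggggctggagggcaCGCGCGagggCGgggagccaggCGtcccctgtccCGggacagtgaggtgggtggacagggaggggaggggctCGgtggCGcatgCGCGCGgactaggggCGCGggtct
Pprc1: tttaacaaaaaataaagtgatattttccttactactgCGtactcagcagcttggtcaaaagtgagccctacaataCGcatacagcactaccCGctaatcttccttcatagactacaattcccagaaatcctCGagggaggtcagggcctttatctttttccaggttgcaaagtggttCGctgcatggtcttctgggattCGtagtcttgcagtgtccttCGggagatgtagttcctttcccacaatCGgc
Ppargc1a: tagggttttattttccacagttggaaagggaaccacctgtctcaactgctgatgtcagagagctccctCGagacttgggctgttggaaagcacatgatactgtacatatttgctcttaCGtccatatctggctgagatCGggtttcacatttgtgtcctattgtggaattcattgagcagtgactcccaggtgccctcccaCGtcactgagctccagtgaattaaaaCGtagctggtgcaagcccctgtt

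Of these 4 promoters, the one richest in CG belongs to Ppara, which was within background. That of Pprc1, which read above all Olfr genes, has 8, near the median of 6 over all windows. Among the other readable genes Esrra has 22 CG, the windows of Rxra hold 40 and 1, and those of Rxrb 31 and 39. The 3 windows of Pparg, from alternative starts, hold 38, 12 and 2, and the 2 windows of Rxrg 6 and 7. The PPAR response element, searched as AGGTCA repeated after a spacer of 1 base on either strand, was found in 0 of the 14 windows and in 0.0335% of all windows, and the ERR element (TCAAGGTCA, on either strand) in 0 of 14 and in 0.387%. The GC box (GGGCGG, on either strand), whose letters include a CG, was found in 8 of the 14 windows, from 6 genes (Ppard, Ppara, Pparg, Rxra, Rxrb and Esrra), and in 32.7% of all windows. A single AGGTCA, which both receptor elements contain, was found in 5 of 14 (from Rxrg, Rxra, Pparg and Pprc1) and in 14% of all windows. These matches describe letters and not bound sites.

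Cofactors of the receptors were readable almost throughout. Of 21 measured coactivators 21 were above the limit on both arrays, 14 of them higher and 7 lower with bezafibrate, with a median log2 ratio of 0.05 and 0 past 1.5-fold. They included the p160 coactivators Ncoa1 (7.46 and 7.57), Ncoa2 (8.64 on each) and Ncoa3 (8.69 and 8.79), and the acetyltransferases Crebbp (9.79 and 9.84) and Ep300 (9.03 and 9.15). Med1, the Mediator subunit that binds PPARs directly, had 8.29 and 8.56. The highest ratios in this list were those of Rb1cc1 (0.27), better known for its part in autophagy, and Med1 (0.26), the lowest those of Kat2a (−0.15) and the arginine methyltransferase gene Prmt1 (−0.11). The central 95% of genes above the limit, from −0.43 to 0.42, held all of these ratios.

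Of 10 measured corepressor genes 9 were above the limit on both arrays, with 6 higher, 3 lower, a median log2 ratio of 0.11 and 0 past 1.5-fold. Nrip1, which encodes the corepressor RIP140, had levels of 7.56 and 7.67. Lcor, a ligand-dependent corepressor, had 7.60 and 7.92, the highest ratio above the limit at 0.32, followed by Tbl1xr1 and Tacc1 at 0.19 each. Hdac3, the deacetylase of the NCoR complex, had a ratio of −0.15 and Gps2, another subunit of it, the lowest above the limit at −0.28.

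Other receptors that pair with RXR were partly readable. Rara, the retinoic acid receptor alpha, had levels of 8.13 and 8.09. Rarg (5.40 and 5.05), the vitamin D receptor gene Vdr (5.10 and 5.19), the liver X receptor gene Nr1h3 (5.11 and 5.14) and the thyroid hormone receptor gene Thra (5.02 and 4.88) read slightly above the limit. Of 38 measured nuclear receptors outside the 10 genes, 19 (among them these 5) passed on both arrays, where 50.7% of all genes did. None of the 38 differed by 1.5-fold, where 2.53% of all genes did. Rarg, Vdr, Nr1h3 and Thra lay below the 99th percentile of Olfr genes (5.62 and 5.71), where a level is weak evidence of a transcript. Among these 5 dimer partners of RXR, only Rara was thus clearly readable in the same cells.

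Genes that supply or carry fatty acids to PPARs divided evenly over all 26 measured, with 13 lower and 13 higher on the bezafibrate array. Of them, 13 were above the limit on both arrays, 9 of them lower and 4 higher with bezafibrate, with a median log2 ratio of −0.14, and 0 passed 1.5-fold. Fabp5, the binding protein known to deliver fatty acids to PPAR delta, had levels of 6.57 and 6.58. Fabp4 (2.08 and 1.81) and the fatty acid transporter gene Cd36 (2.87 and 3.14) were inside background. Among genes above the limit, Alox5, the 5-lipoxygenase gene, had the lowest ratio at −0.36 and Acsl6 followed at −0.28. Acsl5, an acyl-CoA synthetase gene, had the highest of those above the limit at 0.07, and Slc27a4 and Ptgds had 0.03 each. Pnpla2, which encodes the lipase that releases PPAR ligands from lipid droplets, had 8.09 and 7.87.

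Among these lists, cell type markers aside, the largest differences were in PPAR target genes. Of 35 measured, 22 were above the limit on both arrays, 12 of them higher and 9 lower, at a median of 0.07. Of the 23 above the limit on at least 1 array, 3 were at least 1.5-fold higher: Hadhb (log2 ratio 0.92), Plin2 (0.84) and Cpt1a (0.63). Of all genes above the limit on at least 1 array, 0.693% were. In the list 0 were 1.5-fold lower, against 0.578% of those genes. The list was chosen with earlier results of these data known, so the comparison with all genes is not a test of it. Hadhb was close to the limit on the DMSO array (4.96, and 5.88 with bezafibrate), a range where a level is weak evidence of a transcript. Plin2 had 6.36 and 7.19, and Cpt1a 8.39 and 9.02. Slc25a20, the carnitine carrier that acts after Cpt1a in mitochondrial import, had levels of 6.95 and 7.30, a ratio of 0.35. The peroxisomal enzyme gene Ehhadh had 5.12 and 5.37, and the very long-chain dehydrogenase gene Acadvl 7.49 and 7.69. Pdk4, a sensitive PPAR target in muscle, was inside background (4.14 and 3.74), and Angptl4, another, had 6.66 and 6.52. Acadl (8.56 and 8.45) and Acaa2 (7.14 and 7.18), both of β-oxidation, differed little. The lowest ratios above background were those of Plin4 (−0.25) and Mgll (−0.23). The differences past 1.5-fold were therefore in 3 genes and not in the list as a whole.

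Genes downstream of PGC-1 and Esrra divided evenly. Of 29 measured, 24 were above the limit on both arrays, with 11 higher, 13 lower, a median log2 ratio of −0.04 and 0 past 1.5-fold. Ndufs1 (7.22 and 7.59) and Nrf1 (6.86 and 7.15), a nuclear respiratory factor that PGC-1 proteins coactivate, had the highest ratios among genes above the limit, 0.36 and 0.30. Gpx1 (−0.37) and the mitochondrial transcription factor gene Tfb1m (−0.21) had the lowest among them. Of 32 measured regulators of PGC-1, 30 were above the limit on both arrays, with 20 higher, 10 lower, a median log2 ratio of 0.04 and 0 past 1.5-fold. Rnf34, a ubiquitin ligase that targets PGC-1 alpha for degradation, had levels of 7.68 and 7.24 (ratio −0.44), and Mapk11, a p38 kinase gene, 8.27 and 7.89 (−0.38). Camk4, a calcium-dependent kinase upstream of Ppargc1a, had the highest ratio above the limit at 0.23, and Hif1a had 0.19. Prkaa1, the catalytic AMPK subunit that phosphorylates PGC-1 alpha, had 8.71 and 8.73.

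**Figure D4:**
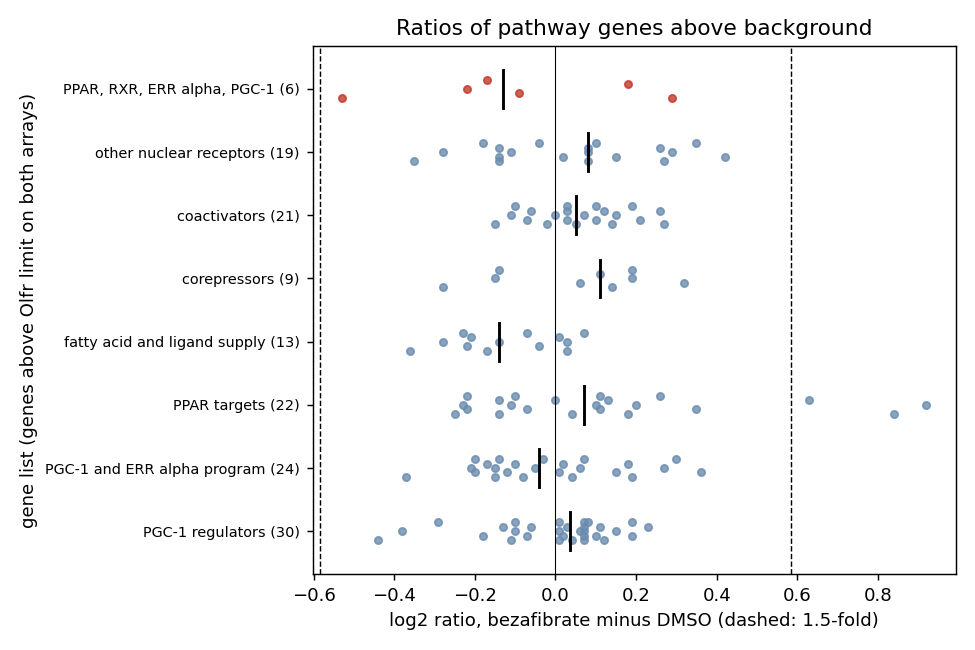
Log2 ratio of bezafibrate over DMSO (x axis) for each gene above the Olfr limit on both arrays, by list (y axis, number of genes in brackets), with the median of each list as a black bar and 1.5-fold as dashed lines. The 3 points right of the dashed line are Cpt1a, Plin2 and Hadhb in the PPAR target list, and the leftmost point is Ppard at −0.53.

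Markers of other cell types differed between the arrays beside these results. Of 7 measured B cell markers 2 were above the limit on both arrays, Ighm (9.05 and 8.72) and Cd79b (5.41 and 4.85), and the summed signal of the list on the linear scale was 656 with DMSO and 528 with bezafibrate. The defining markers Ms4a1, Cd79a and Pax5 were inside background. The summed signal of 6 dendritic cell markers was 618 and 473, mostly from Cd209a, and that of 8 macrophage and monocyte markers 234 and 233. Of 5 measured natural killer cell markers 2 were above the limit on both arrays, Eomes (10.56 and 10.59) and Fcer1g (6.57 and 5.64). The log2 ratio of Fcer1g was −0.93, a 1.90-fold lower level with bezafibrate. The summed signal of this list, 1644 and 1646, came mostly from Eomes. Ncr1 and Klri2 (3.49 and 4.41) were inside background. All 5 measured CD4 T cell markers were higher with bezafibrate, by log2 ratios from 0.01 (Cd40lg) to 0.41 (Cd4). Their summed signal was 1610 and 1756, mostly from Il2ra. Of them 3 were above the limit on both arrays, and Cd4 (3.88 and 4.29) and Cd40lg (3.03 and 3.05) were not. A sum that comes mostly from 1 gene does not show that cells of that type were present. Whether such cells were present, and their part in the difference of Ppard, was not tested. In a bulk sample fewer cells of a type and less RNA per cell cannot be told apart.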

How the data were processed

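Biotin-labelled material from total RNA of 2 cultures was hybridised to 1 array each, per the labels' protocols. The authors deposited log2 signals per probe set; the submitters' processing notes name RMA and Affymetrix Expression Console. No version, annotation release or genome build was given in the sources used here. RMA equalises the arrays and compresses differences at low signal. The log2 scale was inferred from the range of values, 0.75 to 12.68.

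Of 33793 probe sets with values, 23521 name 1 gene in the platform annotation, and the brightest stood for each gene. Each of the 10 genes had 1 such probe set. Levels were set against the 95th percentile of Olfr genes on the same array, and the log2 ratio is bezafibrate minus DMSO. No test was possible with 1 array per group. "Like level" means a mean within 0.5 log2. Genes outside the 10 were named by rule: up to 2 highest and 2 lowest ratios above the limit in each list, plus fixed genes; tissue markers and a few relatives were named after their values were seen. The members and lists were chosen with earlier results of these data known. With 2 arrays no gene could be named for a like pattern. Python 3.11.15, pandas 2.3.3, numpy 2.4.6, statsmodels 0.14.6 and matplotlib 3.10.9 were used. The fold and background rules were run on simulated arrays, only as a check of the code. Their noise was smaller than the spread of the ratios here (robust SD 0.21 above the limit). The share of Olfr genes above their own 95th percentile was fixed by construction.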

Additional observations from a re-analysis of the deposited data

How the results depend on the processing

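The count of 6 genes above Olfr background was 6 with the 90th percentile of Olfr genes, with 434 vomeronasal, taste, keratin-associated, crystallin and defensin genes in their place (limits of 4.95 on each array), with the median of all genes as the limit, and with the other normalizations and probe set rules tried. It was 5 at the 99th percentile, without Ppargc1b, and 1, Pprc1, with the highest Olfr gene (Olfr1360, 7.01 and 6.98) as the limit. The count of genes at least 1.5-fold different was 0, and 1 with ratios centred on the cofactors (Ppard, at −0.60). With a log2 difference of 0.32 as the limit it was 2 (Ppard and Pparg). The 2-fold limit, quantile normalization, loess and the probe set rules gave 0, where the 2-fold limit and the planned probe set rules could give nothing else. The median of −0.13 kept its sign and moved by less than the spread of ratios above the limit (robust SD 0.21). Over the normalizations, the only planned settings that could move them, the ratio of Ppard ran from −0.60 to −0.53 and that of Ppargc1b from 0.21 to 0.31. The ratios of Ppara (−0.10 to 0.02) and Ppargc1a (−0.01 to 0.09) lay on both sides of 0. Averaging with the probe set of several genes, chosen after seeing the data, gave −0.11 for Ppard. No paired analysis was possible because each group has 1 array. The ratios of the 1105 Olfr genes had a robust SD of 0.32, and 96 of them (8.69%) differed 1.5-fold, which limits what a ratio inside background shows.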

Other observations

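Of the other nuclear receptors, several beyond the RXR partners named above read above Olfr background. Nr3c1, the glucocorticoid receptor gene, had log2 levels of 7.38 with DMSO and 7.73 with bezafibrate (ratio 0.35). Nr2c1 and Nr2c2, the testicular orphan receptors, had 5.95 and 6.38 (0.42, the highest ratio of the 38 receptors measured) and 8.03 and 8.29 (0.26). The circadian repressor genes Nr1d1 (4.96 and 5.25) and Nr1d2 (6.02 and 6.10) and Rora (5.57 and 5.65) were above the limit on both arrays, Nr1d1 narrowly. Nr4a1, an immediate early gene of T cell receptor signalling, had 5.09 and 4.91. Of receptors above the limit on at least 1 array, Rarg and Nr2f1 had the lowest ratios, −0.35 and −0.30, and Nr2f1 was inside background on the bezafibrate array. The liver receptor gene Hnf4a, at 4.75 and 4.85, lay just above the limit. Of the 19 receptors above the limit on both arrays, 11 were higher and 8 lower, with a median of 0.08.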
